A study of Arabidopsis thaliana with 40 samples.

Results

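H3K9/14ac, the acetylation of histone H3 at lysines 9 and 14 that is found near the start of active genes, was followed at 9 loci of the Arabidopsis evening clock and of the light-regulated protein turnover tied to it. The loci are GI (AT1G22770), ELF3 (AT2G25930), ELF4 (AT2G40080), LUX (AT3G46640), BOA (AT5G59570), ZTL (AT5G57360), FKF1 (AT1G68050), LKP2 (AT2G18915) and JMJD5 (AT3G20810). They were chosen by name, with earlier results of these data known. The regions of the differential binding tables that overlap their gene spans, or lie within 1 kb of them, were taken. This gave 13 of 13362 regions, of which 9 overlapped 8 of the loci and 4 lay within 1 kb in a neighbouring gene. FKF1 had no region in the tables and is described from the peak lists alone.

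GI is a large plant-specific protein that accumulates towards dusk, and it binds the F-box proteins ZTL, FKF1 and LKP2, which sense blue light and mark clock and flowering regulators for degradation. ELF3, ELF4 and LUX form the evening complex, a repressor of clock and growth genes in the early night, and BOA is a close relative of LUX. JMJD5 is a Jumonji-domain protein whose transcript also peaks around dusk. Trichostatin A (TSA) inhibits histone deacetylases, S-nitrosoglutathione (GSNO) donates nitric oxide, glutathione (GSH) is the same tripeptide without the nitroso group, and cPTIO takes up nitric oxide.

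The material was whole seedlings of ecotype Col-0, 7 days old, from shaken liquid culture with 10 h of light and 14 h of dark. Seedlings were given water as the solvent control, GSNO or GSH at 250 µM each, GSNO at 250 µM together with cPTIO at 500 µM, or TSA at 5 µM, each for 3 h and for 16 h. The series' design names 2 biological replicates for every combination, 20 ChIP samples and 20 input samples in all. Of the 7 tables, 4 set a treatment against water at 3 h and 3 did so at 16 h, without TSA, whose 16 h samples are described from their peak lists. No time of day of treatment or harvest was found in the labels used here, so length of exposure, time of day and any difference between the harvests cannot be told apart in what follows.

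The reads of 17 libraries were recovered from the group means of the tables, 2 for each group and a single one for water at 16 h, which carries every comparison with water at that time. The 2 libraries of a group are called a, the shallower, and b, since they could not be tied to replicate numbers. The shallowest library, water at 16 h, had 1590342 reads within the regions and the deepest, GSNO at 3 h (b), had 4053207. The lowest recorded value was 1 read, and between 0 and 31 regions per library stood at it. Of 6 organ markers, 4 loci had a region: SCR and SHR of the root, and TMM and AS1 of the shoot, but not WOX5 or SPCH. Of these 4, TMM was higher with TSA at 3 h (log2 fold 0.73, FDR 0.0103 in the authors' deposited table), and SCR was higher at 16 h than at 3 h (0.36 ± 0.10, SE, adjusted p = 0.0201 in limma). Their part in the results below was not tested. In whole seedlings, acetylation in fewer cells and less acetylation per cell cannot be told apart.

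The GI region (chromosome 1, 8061885 to 8062650, as the tables give it; TAIR10 and TAIR9 are the builds named in the submitters' processing notes) lay wholly within the gene span. So did those of ELF3 (chromosome 2, 11059033 to 11059771), BOA (chromosome 5, 24004062 to 24004824), ZTL (chromosome 5, 23241462 to 23242141) and JMJD5 (chromosome 3, 7275796 to 7276566). The ELF4 region (chromosome 2, 16734168 to 16734932) had 83.5% of its length in the gene, and the LKP2 region (chromosome 2, 8196896 to 8197533) 92.2%, where it also touched AT2G18917. LUX had 2 regions, the first on chromosome 3 from 17183333 to 17184125 and the second from 17185511 to 17186074. The second LUX region also overlapped AT3G46650, so its reads cannot be given to LUX alone. The 4 neighbouring regions lay in AT1G22780 (11 bases from GI), AT5G57370 (203 bases from ZTL), AT2G18910 (246 bases from LKP2) and AT3G46630 (619 bases from LUX). The nearest region outside the window lay 1666 bases from ELF4, in AT2G40085, with 77 and 168 reads in water at 3 h.

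In water at 3 h the members differed widely in level, given here as scaled reads per kb of region so that regions of unequal length can be compared. BOA had 431.1 (398.9 and 463.3 in the 2 libraries), the first LUX region 381.5 (380.3 and 382.6), JMJD5 346.1 (308.4 and 383.8) and LKP2 313.3 (306.4 and 320.2). The second LUX region followed with 252.8 (244.8 and 260.7), then ELF3 with 213.6 (186.9 and 240.2) and ZTL with 212.6 (203.6 and 221.7). ELF4 had 106.7 scaled reads per kb (99.2 and 114.2), and GI 1.4 (1.0 and 1.8). The libraries of ELF3 and ZTL overlapped, as did those of JMJD5 with the first LUX region and with LKP2, and these neighbours in the order were not separated by their spread. GI stood below every other member in both libraries.

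**Figure D1:**
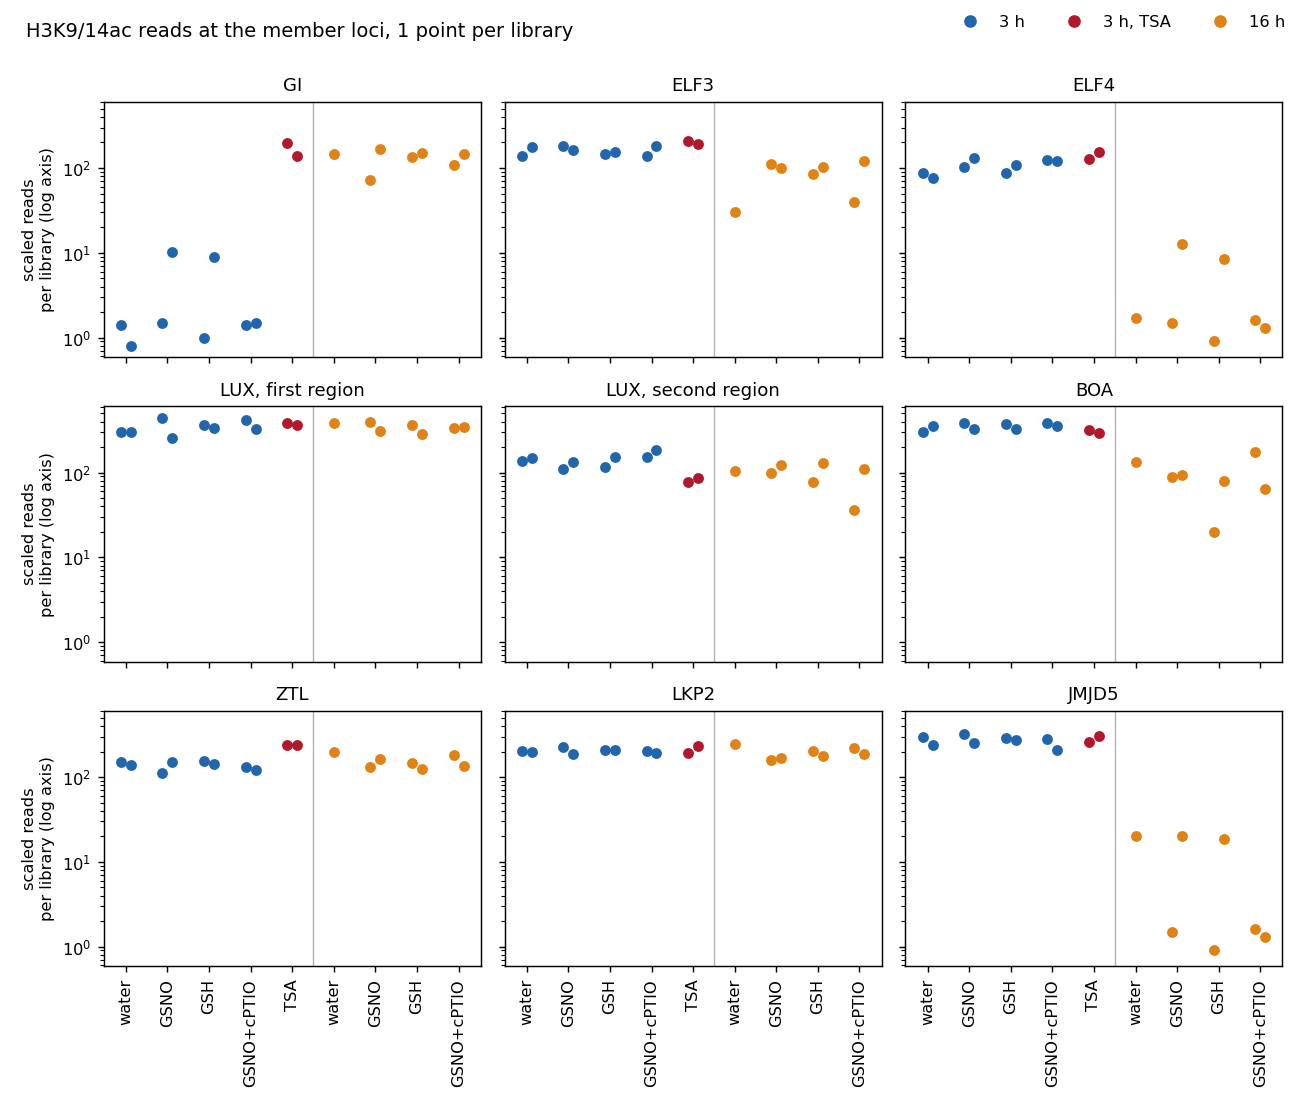
Scaled reads (library depth removed by TMM factors, log axis) at the 9 regions that overlap the member loci, with 1 point per library, library a to the left of b, and the groups of 3 h to the left of the grey line. GI is low in the 8 libraries of 3 h without TSA and high with TSA and at 16 h, while ELF4, JMJD5 and BOA are high at 3 h and low at 16 h.

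GI showed the widest range of the members. With water for 3 h its region held 1 and 1 reads in libraries a and b, and with GSNO with cPTIO 1 and 2. With GSNO it held 1 and 16 reads and with GSH 1 and 12. The 16 and the 12 were the lowest values of those libraries over all 13362 regions, and GI alone held them. GI thus stood at its library's lowest value in 7 of the 8 libraries of 3 h without TSA. With TSA for 3 h the same region held 175 and 125 reads. At 16 h it held 87 reads with water, 49 and 232 with GSNO, 147 and 213 with GSH, and 69 and 111 with GSNO with cPTIO. After scaling, the 3 h libraries without TSA lay between 0.8 and 10.2, the TSA libraries between 138.2 and 197.7, and the 16 h libraries between 73.1 and 165.5. The 3 h libraries without TSA did not overlap with either of the other sets.

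In the authors' deposited table for TSA at 3 h, 3 of the 13 regions were higher and 2 lower than in water at a false discovery rate (FDR) under 0.05, where 20.8% of all 13362 regions were called (1425 higher and 1353 lower). The median log2 fold of the members in the authors' deposited table was 0.07, against 0.00 over all regions. Recovered reads were scaled to library depth, and the deposited group means hold 1 factor per library. Higher and lower are therefore relative to the other regions. A change in acetylation shared by all regions would not show in these folds. GI had the largest member fold in the authors' deposited table, a log2 fold of 7.25 (FDR 2.52e-40). Its size depends on the single reads of water. With 3 reads per water library put in their place, GI stood 51.1-fold higher with TSA. This is no bound if input reads were subtracted. On the recovered reads, limma with a mean-variance trend gave GI 6.33 ± 5.36 (SE, log2 scale, n = 2 and 2, adjusted p = 0.451), with an error that the trend makes wide for regions at 1 read. Without that trend, limma gave the same fold an adjusted p of 0.00133 and limma-voom 0.000185. PFL (AT1G22780), 11 bases from GI, had 162 and 200 reads with TSA against 146 and 302 with water, a log2 fold of -0.14 (FDR 0.698) in the authors' deposited table.

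ELF4, whose product is a small protein of the evening complex, held 112 and 138 reads with TSA against 62 and 97 with water. After scaling these were 126.5 and 152.6 against 75.9 and 87.4, and the 2 groups did not overlap. Its log2 fold in the authors' deposited table was 0.77 (FDR 0.0141). limma on the recovered reads did not call ELF4 (0.76 ± 3.94, SE, adjusted p = 0.921), nor did limma-voom (adjusted p = 0.062) or limma without the trend (adjusted p = 0.502). The spread in these fits was estimated over all recovered libraries, including those of 16 h, where ELF4 held 1 to 18 reads. It is thus not the spread of the TSA and water libraries alone. The trend also widens the error printed for ELF4, as it does for GI.

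ZTL, the F-box protein that targets the clock proteins TOC1 and PRR5, held 213 and 214 reads with TSA against 107 and 177 with water. After scaling, the TSA libraries had 236.6 and 240.6, above every other recovered library of 3 h or 16 h, which lay between 111.2 and 198.5. The log2 fold was 0.71 (FDR 0.0091) in the authors' deposited table. Its call against water was also made by limma, limma-voom and limma without the trend. Leaving out any 1 of the 4 TSA and water libraries lost the call in limma, with an adjusted p of 0.113 to 0.17. It also stood higher with TSA than with GSNO in limma (0.88 ± 0.23, SE, log2 scale, adjusted p = 0.0152). In AT5G57370, 203 bases from ZTL, reads were 177 and 189 with TSA against 242 and 344, a log2 fold of -0.59 (FDR 0.0513) in the authors' deposited table, not called. The same region was called lower by limma (-0.57, adjusted p = 0.0307) and limma-voom (-0.55, adjusted p = 0.0211).

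The second LUX region was lower with TSA, with 69 and 77 reads against 98 and 188 in water. Its log2 fold was -0.81 (FDR 0.00726) in the authors' deposited table, and it was not called by limma (adjusted p = 0.179), limma-voom (adjusted p = 0.126) or limma without the trend (adjusted p = 0.197). The first LUX region held 342 and 332 reads with TSA against 214 and 388, a log2 fold of 0.31 (FDR 0.275) in the authors' deposited table. AT2G18910, the neighbour of LKP2, was lower with a log2 fold of -0.58 (FDR 0.04) in the authors' deposited table, from 163 and 306 reads to 147 and 135. This region was also called lower by limma (-0.57, adjusted p = 0.0414) and by limma-voom. limma without the trend did not call it (adjusted p = 0.0806), nor did limma without any 1 of the 4 TSA and water libraries (adjusted p = 0.0954 to 0.198).

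The remaining members did not pass the threshold with TSA. ELF3 held 182 and 176 reads against 98 and 227 (0.34, FDR 0.325), BOA 285 and 264 against 216 and 452 (-0.11, FDR 0.751), LKP2 168 and 209 against 145 and 250 (0.07, FDR 0.862), and JMJD5 229 and 277 against 210 and 304 (0.07, FDR 0.838), each a log2 fold in the authors' deposited table. Leaving out 1 TSA or water library in limma left 0 to 1 of the 13 regions called. When TSA was set directly against the other agents at 3 h, limma called ZTL higher and AT2G18910 lower against GSNO (11.7% of all regions called), and no member against GSH (8.43%). The ZTL call against GSNO was lost without library a of GSNO (adjusted p = 0.198 in limma) or either TSA library (0.107 and 0.0937), and that of AT2G18910 without library a of GSNO (0.106). Against GSH, ZTL stood at 0.68 ± 0.23 (SE, adjusted p = 0.0632 in limma) and GI at 5.25 ± 5.36 (adjusted p = 0.591 in limma). Both were called against GSH by limma-voom, with adjusted p = 0.00433 for ZTL and 0.00181 for GI. Against GSNO, GI stood at 4.98 ± 5.36 (SE, adjusted p = 0.58 in limma). It was called there by limma-voom (adjusted p = 0.0036) and limma without the trend (adjusted p = 0.00435).

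**Figure D2:**
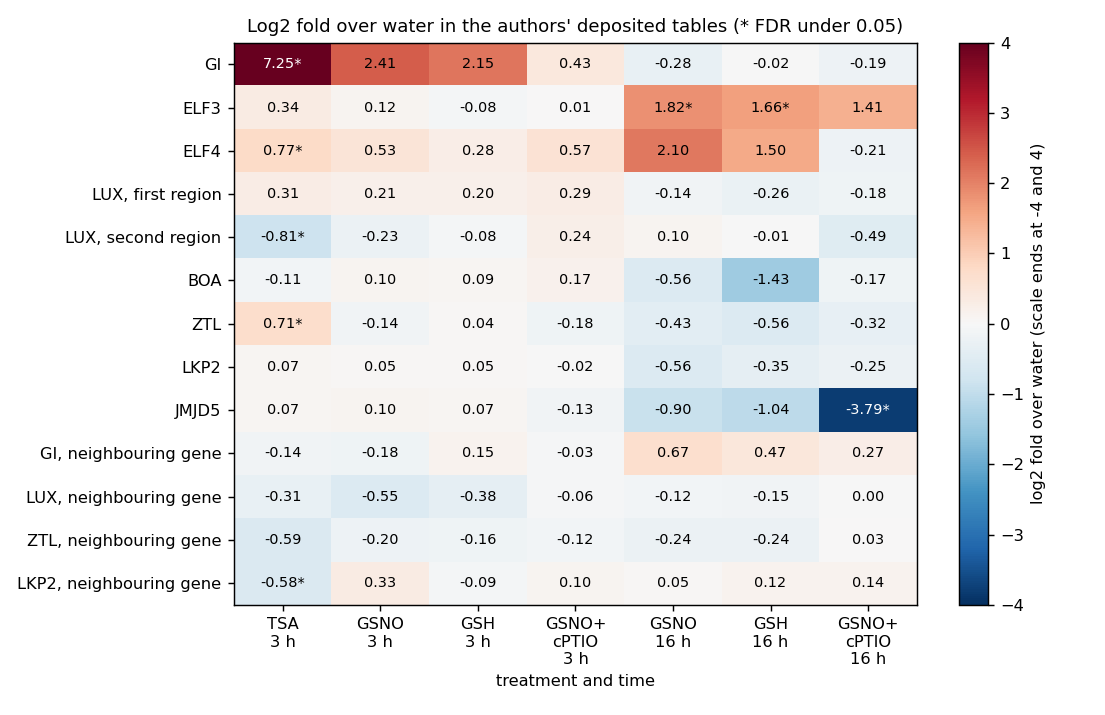
Log2 fold over water for the 13 member regions (lines) in the authors' 7 deposited tables (columns, treatment and time), with colour from blue (lower) to red (higher) and an asterisk at an FDR under 0.05. GI stands out with TSA at 7.25, ELF3 with GSNO (1.82) and GSH (1.66) at 16 h, and JMJD5 with GSNO with cPTIO at 16 h (-3.79).

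None of the 13 regions was called at 3 h with GSNO, GSH or GSNO with cPTIO in the authors' deposited tables, where the shares over all regions were 0.0449%, 0.105% and 0.0374%. The same held in limma, limma-voom and limma without the trend. Over all 13362 regions, an unadjusted p under 0.05 was found at 296 regions for GSNO, 542 for GSH and 446 for GSNO with cPTIO in the authors' deposited tables. GI had log2 folds of 2.41 with GSNO (unadjusted p = 0.002, FDR 1 in the authors' deposited table) and 2.15 with GSH (unadjusted p = 0.0113, FDR 0.946 in the authors' deposited table), each from a library b in which GI had the fewest reads of all regions. For ELF4 the log2 folds were 0.53, 0.28 and 0.57 in the same order (FDR 1 in each of the authors' deposited tables). At the first LUX region, BOA, ZTL, LKP2, JMJD5 and ELF3, the folds of these 3 treatments lay between -0.18 and 0.29 in the authors' deposited tables.

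GSNO and GSH differ by the nitroso group and were given at the same dose and times. No member was called between them by limma at 3 h (0% of all regions) or at 16 h (0%), and over all regions 229 and 337 had an unadjusted p under 0.05. At 3 h the log2 difference, GSNO less GSH, was -0.04 at the first LUX region (95% interval -0.46 to 0.37), 0.01 at BOA (-0.80 to 0.82), -0.01 at LKP2 (-0.39 to 0.36) and 0.19 at ELF3 (-0.55 to 0.94). At 16 h BOA had 59 and 130 reads with GSNO and 22 and 111 with GSH. The log2 difference was 1.15 (interval 0.34 to 1.97), with an unadjusted p of 0.00736 and an adjusted p of 1 in limma. Without library b of GSH at 16 h it was 2.11, with 1 GSH library left. The intervals of GI (-10.8 to 11.3 at 3 h) and ELF4 (-7.91 to 8.40 at 3 h) were too wide to bound a difference. GSNO without and with cPTIO gave no member call in limma at 3 h (0%) or 16 h (0.0225%), where 616 and 1298 regions had an unadjusted p under 0.05. At 3 h the log2 difference was 1.09 at GI (interval -9.97 to 12.2) and -0.50 at AT3G46630 beside LUX (interval -0.81 to -0.18), each with an adjusted p of 1 in limma. At 16 h it was 1.57 at JMJD5 (interval -0.76 to 3.89, adjusted p = 0.689 in limma). Leaving out library b of GSNO with cPTIO at 16 h brought ELF3 (1.40, adjusted p = 0.0235 in limma) and the second LUX region (1.57, adjusted p = 0.03 in limma) past the threshold.

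Between the times, several members moved in opposite directions. In limma, the mean difference of 16 h from 3 h over water, GSNO, GSH and GSNO with cPTIO was past an adjusted p of 0.05 for 4 of the 13 regions, 1 higher and 3 lower, against 11.9% of all regions (866 higher and 728 lower). The 8 libraries of 3 h without TSA and the 7 of 16 h did not overlap at 6 of the 13 regions, against 3.28% of all regions. These 6 were GI, ELF3, ELF4, BOA, JMJD5 and AT3G46630 beside LUX. An exact permutation test of the 8 against 7 libraries was chosen after the data were seen (two-sided, 6435 arrangements, adjusted over all regions). It called these 6 and the second LUX region, 2 higher and 5 lower, against 9.51% of all regions. GI had a peak in 0 of the 8 peak lists of 3 h without TSA. ELF4, BOA and JMJD5 had one in 0 of the 8 of 16 h without TSA. The ends of the GI, ELF4 and JMJD5 regions match those of peaks in lists where they stood high. Regions that entered the tables this way are prone to separate between the times, and GI also with TSA. These counts are thus a description and no test of the members.

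JMJD5 had the largest fall among the members called by limma. Its region held between 196 and 392 reads in the 8 libraries of 3 h without TSA, with a median of 288. At 16 h it held 12 reads with water, 1 and 28 with GSNO, 1 and 26 with GSH, and 1 and 1 with GSNO with cPTIO. All 7 libraries of 16 h lay far below the lowest of 3 h, at 0.9 to 20.0 scaled reads against 209.8 to 323.1. The mean difference was -5.28 ± 0.60 (SE, log2 scale, adjusted p = 1.33e-06 in limma). With GSNO with cPTIO, the 3 h libraries stood 56.6-fold above those of 16 h when the latter were set to 3 reads each.

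ELF4 was also lower at 16 h. It held 62 to 207 reads at 3 h without TSA (median 94.5), and at 16 h 1 read with water, 1 and 18 with GSNO, 1 and 12 with GSH, and 1 and 1 with GSNO with cPTIO. Scaled reads were 75.9 to 131.5 at 3 h and 0.9 to 12.8 at 16 h. With the 16 h libraries set to 3 reads each, water stood 16.3-fold higher at 3 h and GSNO with cPTIO 28.0-fold. limma with the trend gave -4.87 ± 2.09 (SE, adjusted p = 0.14), limma without it an adjusted p of 8.92e-06, and the exact permutation test an adjusted p of 0.00685.

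BOA, the relative of LUX, held 216 to 514 reads at 3 h without TSA (median 418.0). At 16 h it held 80 reads with water, 59 and 130 with GSNO, 22 and 111 with GSH, and 109 and 49 with GSNO with cPTIO. Every 16 h library stood below every 3 h library, at 20.1 to 172.8 scaled reads against 304.4 to 381.4. The mean difference was -2.04 ± 0.21 (SE, adjusted p = 2.92e-07 in limma). The first LUX region held 214 to 456 reads at 3 h (median 381.0) and 214 to 435 at 16 h (median 265.0), which after scaling were 257.9 to 440.3 and 282.7 to 393.9. Its mean difference was 0.05 (95% interval -0.17 to 0.27, adjusted p = 0.819 in limma). The second LUX region had -0.60 ± 0.21 (SE, adjusted p = 0.0673 in limma) and an adjusted p of 0.0381 by the exact permutation test, with libraries that overlapped.

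ELF3, the scaffold of the evening complex, held 96 to 254 reads at 3 h without TSA (median 180.0). At 16 h it held 18 reads with water, 75 and 141 with GSNO, 93 and 146 with GSH, and 25 and 92 with GSNO with cPTIO. Scaled reads fell from 137.1 to 180.3 at 3 h to 30.0 to 119.6 at 16 h, with the water library and library a of GSNO with cPTIO the lowest. The mean difference was -1.22 ± 0.19 (SE, adjusted p = 0.000111 in limma), and -0.84 (adjusted p = 0.012 in limma) without the water groups. limma-voom did not call it (adjusted p = 0.0725).

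GI moved the other way. Its 16 h libraries without TSA held 49 to 232 reads (median 111.0) against 1 to 16 at 3 h (median 1.0). limma with the trend gave 5.31 ± 2.84 (SE, log2 scale, adjusted p = 0.25), limma without the trend an adjusted p of 4.48e-06, limma-voom 1.27e-09, and the exact permutation test 0.00685. The smallest adjusted p which that test could give here is 0.00685, reached by GI, ELF3, ELF4, BOA and JMJD5.

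The F-box members ZTL and LKP2 did not pass the test between the times. ZTL held 74 to 237 reads at 3 h without TSA (median 159.5) and 89 to 228 at 16 h (median 119.0), with a mean difference of 0.20 (95% interval -0.05 to 0.45, adjusted p = 0.319 in limma). LKP2 held 144 to 295 reads (median 231.0) and 108 to 251 (median 146.0), with -0.03 (interval -0.23 to 0.17, adjusted p = 0.891 in limma). Of the neighbouring regions, AT3G46630 beside LUX rose by 0.54 ± 0.08 (SE, adjusted p = 6.54e-05 in limma), from 192.3 to 314.2 scaled reads at 3 h to 332.4 to 405.7 at 16 h. PFL beside GI had -0.09 (interval -0.28 to 0.11).

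**Figure D3:**
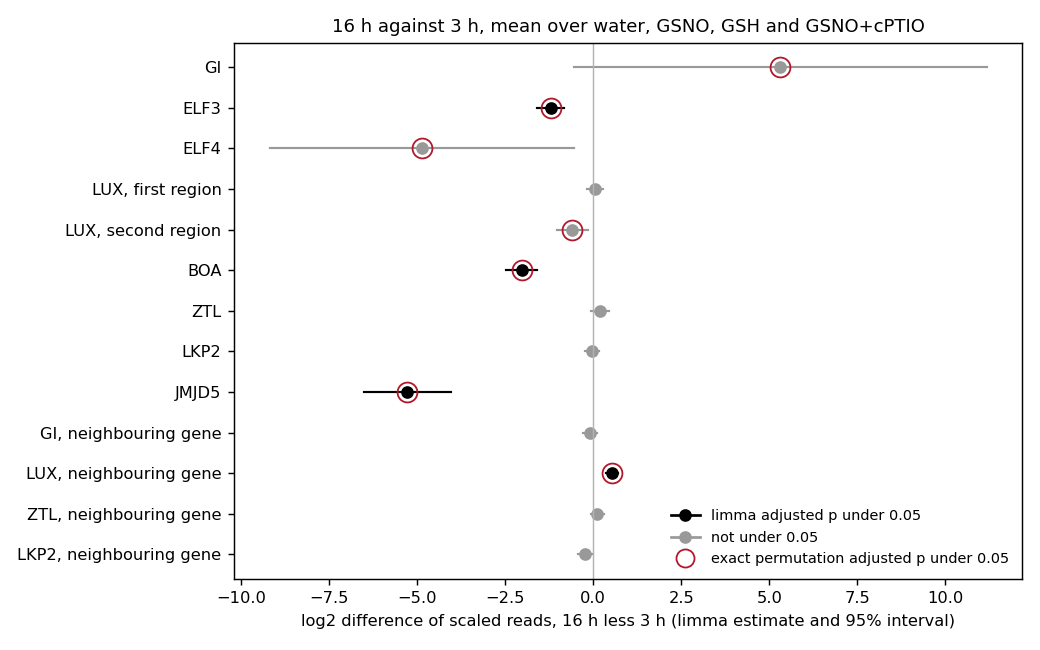
Log2 difference of scaled reads, 16 h less 3 h, for the 13 member regions with the 95% interval of limma, black where limma's adjusted p was under 0.05 and ringed where that of the exact permutation test was. JMJD5, BOA and ELF3 are black and left of 0, AT3G46630 beside LUX is black and right of 0, and GI and ELF4 are ringed with wide intervals.

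Within single treatments, limma called JMJD5 and BOA lower at 16 h with each of GSNO, GSH and GSNO with cPTIO. With GSNO, JMJD5 stood at -5.30 ± 1.12 (SE, adjusted p = 0.0176 in limma) and BOA at -1.95 ± 0.39 (adjusted p = 0.012 in limma). With GSH they stood at -5.53 ± 1.12 (adjusted p = 0.0186 in limma) and -3.10 ± 0.39 (adjusted p = 0.00013 in limma). With GSNO with cPTIO the values were -6.64 ± 1.12 (adjusted p = 0.00119 in limma) and -1.80 ± 0.39 (adjusted p = 0.0108 in limma). AT3G46630 beside LUX was called higher with GSNO (0.79 ± 0.15, adjusted p = 0.00936 in limma). The members called were 3, 2 and 2 of 13, against 0.883%, 0.494% and 3.44% of all regions. limma without the trend lost BOA with GSNO (adjusted p = 0.172) and with GSNO with cPTIO (0.0947), and AT3G46630 with GSNO (0.0576). It added GI as higher and ELF4 as lower at 16 h with each of these treatments (adjusted p = 0.00228 to 0.0228). limma-voom added both as well (adjusted p = 0.0015 to 0.0238). With GSNO, leaving out library a of either time left 0 members called, and AT3G46630 was also lost without library b of 16 h (adjusted p = 0.054 in limma). With GSH, JMJD5 was lost without library a of 16 h or either library of 3 h (adjusted p = 0.254, 0.439 and 0.329 in limma). With GSNO with cPTIO, leaving out library a of 3 h left 0 called, and BOA was also lost without library b of 16 h (adjusted p = 0.127 in limma).

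At 16 h, against the single water library, 1 member was called with each treatment in the authors' deposited tables. ELF3 was higher with GSNO (log2 fold 1.82, FDR 0.00821, with 0.935% of all regions called) and with GSH (1.66, FDR 0.00296, with 2.16% called) in the authors' deposited tables. With GSNO with cPTIO, ELF3 had 1.41 at an FDR of 0.707, and JMJD5 was lower with -3.79 (FDR 0.0205, with 0.561% called) in the authors' deposited table. The ELF3 calls stand against 18 reads of water and the JMJD5 call against 12. None of them was called by limma (adjusted p = 0.105, 0.165 and 0.377), limma-voom or limma without the trend. BOA with GSH had a log2 fold of -1.43 (FDR 0.13) in the authors' deposited table.

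Whether a response to a treatment differed between the times was tested directly, as the response at 16 h less that at 3 h. No member was called by limma for GSNO (0.12% of all regions), GSH (0.12%) or GSNO with cPTIO (0.18%), and 802, 646 and 995 regions had an unadjusted p under 0.05. For ELF3 with GSNO this difference was 1.67 ± 0.57 (SE, log2 scale, unadjusted p = 0.00764, adjusted p = 0.612 in limma). The comparisons of all treatments with water at one time share the water libraries, so their folds are not independent of each other.

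The peak lists, which hold positions and no peak height, were made per library and include FKF1 and TSA at 16 h. They are not independent of the region reads. They belong to the same ChIP samples, and ends of member regions match ends of these peaks. Among the 8 lists of 3 h without TSA, ELF3, LUX, BOA, LKP2 and JMJD5 had a peak in 8, ZTL in 7, ELF4 in 6, FKF1 in 2 and GI in 0. Both lists of TSA at 3 h had a peak at each of the 9 loci, GI and FKF1 included. Among the 8 lists of 16 h without TSA, LUX, ZTL and LKP2 had a peak in 7, GI in 3 (1 of GSNO and both of GSH), ELF3 in 2, and ELF4, BOA, FKF1 and JMJD5 in 0. Peak lists differ in length, and replicate 2 of water at 16 h had a short list of 1199 peaks with none at a member locus, where 18 of the 20 lists held 6030 to 14758. A missing peak is not a missing mark: GI held 69 and 111 reads with GSNO with cPTIO at 16 h and had a peak in neither list.

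FKF1, the F-box protein that works with GI to remove the CDF repressors of flowering, had a peak in water replicate 1 (chromosome 1, 25508960 to 25509547) and GSNO replicate 1 (25508789 to 25509491) at 3 h. With TSA for 3 h it had one in replicate 1 (25508978 to 25509729) and in replicate 2 (25509079 to 25509592). It had none in any list of 16 h. TSA at 16 h was represented by 1 full list (replicate 1, 14758 peaks) and 1 of 385 peaks. The full list had peaks at GI (8062057 to 8062550), ELF3, LUX, BOA (24004216 to 24004824), ZTL and LKP2 and none at ELF4, FKF1 or JMJD5. BOA thus had a peak in that list and in 0 of the 8 lists of the other treatments at 16 h. With 1 usable list no test of this can be made.

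**Figure D4:**
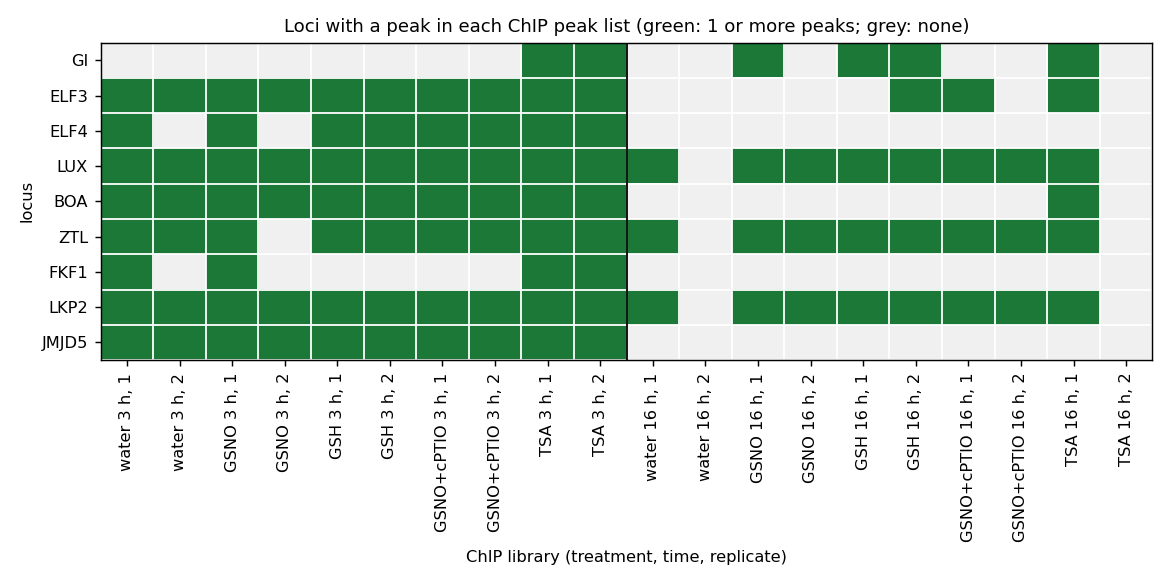
Presence (green) or absence (grey) of a peak at each of the 9 loci in the 20 ChIP peak lists, ordered by time, treatment and replicate, with 3 h left of the black line. All 9 loci are green with TSA at 3 h, and ELF4, FKF1 and JMJD5 are grey in every list of 16 h.

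To place the members among their partners, 39 loci of the clock, the photoperiod pathway and light signalling were examined by name, of which 28 had a region, 29 regions in all. This list was also chosen with earlier results of these data known, so its share of calls is no test against that of all regions. With TSA at 3 h the authors' deposited table called 9 of the 29 regions higher and 4 lower, beside 20.8% of all regions. The largest were the morning clock genes PRR9 (log2 fold 5.93, FDR 7.56e-23) and PRR7 (3.30, FDR 8.19e-25), and PIF4 (4.65, FDR 9.37e-31), a growth-promoting transcription factor, in the authors' deposited table. In the authors' deposited table CDF1 (1.79), CDF2 (2.82) and CDF3 (2.15), the repressors that FKF1 and GI remove, stood higher too. CUL1 (0.95), the scaffold of the ubiquitin ligase into which ZTL fits, EFL2 (0.79), a relative of ELF4, and RVE4 (0.68), an afternoon activator, completed the higher group of the authors' deposited table. TEM2 (-1.10), TEM1 (-0.92), TIC (-0.86) and the blue-light receptor CRY1 (-0.68) were lower in the authors' deposited table. CCA1, LHY, RVE8, PRR5, PRR3, LNK1, LNK2, EFL1, EFL3, CDF5 and FT had no region.

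Between the times, 9 of the 29 regions were higher at 16 h and 2 lower in limma, beside 11.9% of all regions. Higher were PRR9 (5.25 ± 1.63, SE, log2 scale, adjusted p = 0.0368), PRR7 (3.44 ± 0.54, adjusted p = 0.000118), PIF4 (3.98 ± 0.55, adjusted p = 2.3e-05) and CDF3 (3.75 ± 0.27, adjusted p = 1.32e-09) by limma. CDF1, CDF2, PIF5, CHE and EFL2 were the others, with 0.56 (EFL2) to 3.74 (CDF2). Lower were TOC1, a partner of the evening genes in the clock (-0.58 ± 0.10, adjusted p = 0.000485), and TOE1 (-0.29 ± 0.09, adjusted p = 0.0313) by limma. PRR9, PRR7, PIF4, EFL2 and the 3 CDF genes were thus called higher in both comparisons, which share the water libraries of 3 h. For GI, the authors' deposited table made the TSA call, and between the times the exact permutation test called it but limma with the trend did not. The median over the 29 regions was 0.03 in limma between the times and 0.02 with TSA in the authors' deposited table.

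The regions whose scaled reads ran most like each member over the 17 libraries were named by Pearson's r of log2 values, as a description in which the points share treatments and times. For GI these were LHCB2.1 (AT2G05100; r = 0.971), an antenna protein of photosystem II, CDF1 (0.948) and AT5G06980 (0.94). For ELF4 they were COR27 (AT5G42900; 0.983), AT4G34950 (0.97) and AT4G33980 (0.967), and for JMJD5 COR27 (0.962), SCPL49 (0.957) and AT1G17665 (0.937). For BOA they were YLS2 (0.938), AT1G11210 (0.929) and AT4G34930 (0.916). For ELF3 the nearest were AT2G39280 (0.928), AT2G40085 (0.922), which is the region closest to ELF4 outside the window, and APK (0.906). The first LUX region (VCS, 0.855), ZTL (a region shared by AT1G06720 and AT1G06730, 0.893) and LKP2 (ATGRIP, 0.808) had lower highest values.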

How the data were processed

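Members and gene lists were chosen with earlier results of these data known. The submitters' processing notes name DiffBind, edgeR and the builds TAIR10 and TAIR9, with no version. For the aligner and peak caller the sources used here give nothing. The authors deposited 7 tables of the same 13362 regions, which hold log2 group means of normalised reads, log2 folds, p-values and FDR values. Regions were matched to loci through a RefSeq gene table of assembly TAIR10.1, used for overlap alone. Treatment against water was called at the authors' deposited FDR under 0.05.

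Each deposited group mean could be split into whole reads and 1 factor per library, for 100% of values within 1e-08. This gave 17 libraries without replicate numbers. No source used here says whether input reads were subtracted, and 1 read was taken as a floor. Groups at that floor were also set to 3 reads per library to give a second fold. That fold is no bound, since reads before any subtraction are not known. TMM factors (trims 0.3 and 0.05) scaled the recovered reads, and log2(scaled reads + 1) entered limma 3.58.1 (R 4.3.3; trend, two-sided, Benjamini-Hochberg over 13362 regions). Such a fold understates changes of low regions. All 17 libraries shared 1 estimate of the spread, which also stood in for the missing spread of water at 16 h. The limma steps and the recovery were tested on simulated data. For limma, each simulated region had its mean over all libraries, apart from the changes put in. Regions at 1 read in some groups and high in others, such as GI, ELF4 and JMJD5, were thus not covered. A peak was counted at a locus with 1 base of overlap, after 14 records that ran along a whole chromosome were left out.

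All members are named. Of the other clock, photoperiod and light genes, the rule took at most 12 called with TSA, by the size of the fold. RVE4, the smallest of 13, and the genes named for the times and those without a region were added after their values were seen. For likeness, the 3 regions of other loci with the highest r were named, and for LUX, ZTL and LKP2 the first of them. Alternatives were limma-voom, median-of-ratios scaling, pseudocounts of 0.5 and 5, a mean of 20 or more reads, no trend, each library left out, and overlap alone. The input libraries were not analysed here. With at most 2 cultures per group, p-values reflect only the cultures sampled. Those of limma rest on the spread within groups pooled over all recovered libraries, with limma's shrinkage. Those of the permutation test rest on the libraries of both times without regard to treatment.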

Additional observations from a re-analysis of the deposited data

How the results depend on the processing

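Counts are of the 13 member regions called. No single value that was called changed direction under any alternative. For TSA against water, the authors' deposited table made 5 calls, limma 3 (2 of the 5 and AT5G57370 beside ZTL), limma-voom 4 (3 of the 5 and AT5G57370), and limma without the trend, a fit added after the data were seen, 2 of the 5. For the 16 h comparisons with water, the 1 call each of GSNO, GSH and GSNO with cPTIO became 0 by limma, limma-voom and limma without the trend. Overlap alone left 1 of 2 calls for TSA against GSNO, and limma-voom and limma without the trend added GI there. TSA against GSH went from 0 to 2 by limma-voom and 1 without the trend. The mean of 16 h against 3 h went from 4 to 7 by the exact permutation test, and the count was 4 without the water groups, both added after the data were seen. For that mean, a pseudocount of 5 and limma without the trend added GI and ELF4, and limma-voom added both but lost ELF3. A pseudocount of 5 also added the second LUX region for GSNO with cPTIO between the times (adjusted p = 0.0496 in limma). By limma-voom the counts for GSNO and GSH between the times were 5 and 5, and for GSNO with cPTIO 4; without the trend that of GSH was 4. Median-of-ratios scaling, a pseudocount of 0.5 and a mean of 20 or more reads gave the same counts as limma throughout. The cause of these shifts was not tested.

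Leaving out each library in turn, refitted with limma, gave 0 to 1 calls for TSA against water. Against water at 16 h it gave 0 for GSNO, 0 to 1 for GSH and 0 to 1 for GSNO with cPTIO. It gave 0 to 1 for GSNO against GSH at 16 h, 0 to 2 for GSNO against GSNO with cPTIO at 16 h, and 0 to 3 for TSA against GSNO. Between the times it gave 4 to 6 for the mean, 0 to 3 for GSNO, 1 to 2 for GSH and 0 to 3 for GSNO with cPTIO. The response to GSH at 16 h less that at 3 h gave 0 to 1, and for BOA without library b of GSH at 16 h the log2 fold of GSH over water was -2.67 (adjusted p = 0.00152 in limma). For the other clock, photoperiod and light genes with TSA it gave 3 to 10 of 29 regions, the lowest without library a of water at 3 h, against 13. A refit without 1 library leaves an arm of 1, which is assumed to vary like the other groups. The single water library of 16 h was not left out, since no other remains. Peaks stood at 105 of 180 pairs of locus and list with 1 or 100 bases of overlap, and at 111 with the records along a whole chromosome kept in.

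No paired analysis was possible because the recovered libraries carry no replicate number. The peak lists hold no score to set a stricter threshold by. Depth limits regions at 1 read, GI at 3 h and ELF4 and JMJD5 at 16 h, where folds depend on the floor.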
